A study of Mus musculus with 6 samples.

Results

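The genes described here encode the trans-acting regulators of pre-mRNA splicing: the SR proteins (Srsf genes), their co-activators Tra2a, Tra2b, Srrm1 and Srrm2, the CLK and SRPK kinases that phosphorylate them, and the heterogeneous nuclear ribonucleoproteins (hnRNPs). They were taken by symbol from the protein-coding entries of the deposited expression table, as every Srsf gene with a number, every gene whose symbol begins with Hnrnp other than Hnrnpd itself, and 10 genes named singly (Clk1 to Clk4, Tra2a, Tra2b, Srrm1, Srrm2, Srpk1 and Srpk2). This gave 40 of 21436 listed genes. RNA sequencing had been carried out on wild-type 3T3-L1 cells, a clonal mouse embryonic fibroblast line that serves as a preadipocyte model. In the co-culture group (3 libraries) human umbilical cord mesenchymal stem cells sat in the upper chamber of a Transwell with 0.4 µm pores above the 3T3-L1 cells, and in the group of cells alone (3 libraries) the upper chamber held no cells. Both groups had been kept for 72 h in the same adipogenic medium, which held 2 µM rosiglitazone, 1 µM dexamethasone, 0.5 mM IBMX, 10 mg/L insulin and 10% fetal bovine serum, so no group was without hormonal induction. The labels do not say whether the libraries of a group were grown as separate cultures. The p-values below therefore reflect the scatter of these libraries, and that scatter may be technical.

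SR proteins carry RNA recognition motifs and a tail rich in arginine and serine, bind enhancer sequences in exons and help recruit the spliceosome to nearby splice sites. SRPK kinases phosphorylate that tail in the cytoplasm, which allows import into the nucleus, and CLK kinases phosphorylate it further in the nucleus, which releases SR proteins from nuclear speckles. The hnRNPs coat nascent transcripts and often, though not always, oppose exon inclusion. Many of these genes limit their own output through unproductive isoforms that nonsense-mediated decay removes or that are held in the nucleus with introns retained. In 3T3-L1 cells a CLK kinase and SRp40, the product of Srsf5, have been linked to alternative splicing of protein kinase C beta during adipogenesis.

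Expression is given in FPKM (fragments per kilobase of gene and per unit of library size), and the library totals recovered from these values were 29603755 to 37612585 reads in co-culture and 36119750 to 38357563 reads alone. All 7 fibroblast and preadipocyte markers (Dlk1, Pdgfra, Pdgfrb, Col1a1, Col3a1, Vim and Thy1) were above 1 FPKM in both groups. By the limma test described below, 6 of the 7 also differed between groups, with Dlk1, Pdgfra, Pdgfrb and Vim 1.12- to 1.21-fold higher and Col3a1 and Thy1 1.12- and 1.15-fold lower in co-culture (adjusted p between 0.00256 and 0.0210), changes of the size of most reported here. Of 5 adipocyte markers Fabp4 alone exceeded 1 FPKM, with Adipoq, Plin1, Cfd and Cidec near 0. Of 4 macrophage markers Cd68 alone exceeded 1 FPKM. The 5 adipocyte markers summed to 57.4 to 58.8 FPKM in co-culture and 50.2 to 56.2 FPKM alone. Fabp4 made up nearly all of that sum and was not called (log2 change 0.12, limma adjusted p = 0.0508). Defining markers of endothelium and epithelium summed to less than 0.0850 FPKM in every library, and 4 globin genes summed to 0 to 4.599 FPKM in co-culture and 4.62 to 10.2 FPKM alone. Of the globin genes Hbb-bs and Hba-a1 were called lower in co-culture (limma adjusted p = 0.00697 and 0.0407). Co-culture replicate 1 had 0 reads for each of the 4. The part of cell state or of other cells in the results was not tested.

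Of the 40 genes, 39 averaged 1 FPKM or more and were tested. The exception was Hnrnpa1l2-ps2, a pseudogene by its description in the table, which had 3 reads in each group. Among the 39, 7 genes were higher (17.9%) and 8 were lower (20.5%) in co-culture, where over all 10055 tested genes 13.9% were higher and 17.9% lower (limma, Benjamini-Hochberg adjusted p below 0.05, the rule for every gene said to rise or fall). Together 15 of 39 changed (38.5%), against 31.8% of all tested genes, so the share of changed genes lay near that of the transcriptome. The changes were small, and apart from Clk1 no called gene moved by more than the 24.7% by which Srrm2 was higher. The median absolute log2 change was 0.0944 over the 39 genes and 0.101 over all tested genes, and the median log2 change was −0.039 and −0.0037. In bulk RNA, fewer cells with a transcript and less transcript per cell cannot be told apart.

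The largest fall was that of Clk1 and the largest rise that of Srrm2. Clk1, Srpk1, Srsf1, Srsf2, Hnrnph1 and Hnrnpa0 were lower, and Srrm2, Hnrnph2 and Hnrnpu higher, in the reported fit and in each of 15 alternatives, which included leaving out each library in turn. The other 6 calls (Srsf5, Srsf10, Srsf11, Tra2a, Srrm1 and Hnrnpab) were lost in at least 1 alternative. Higher genes numbered 3 without co-culture replicate 1 or alone replicate 2 and 4 without co-culture replicate 3. In 18 of the 39 genes the values of the groups overlapped. All 3 co-culture libraries were above all 3 libraries of cells alone for 9 genes, against 21.3% of all tested genes, and below them for 12, against 24.8%.

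**Figure D1:**
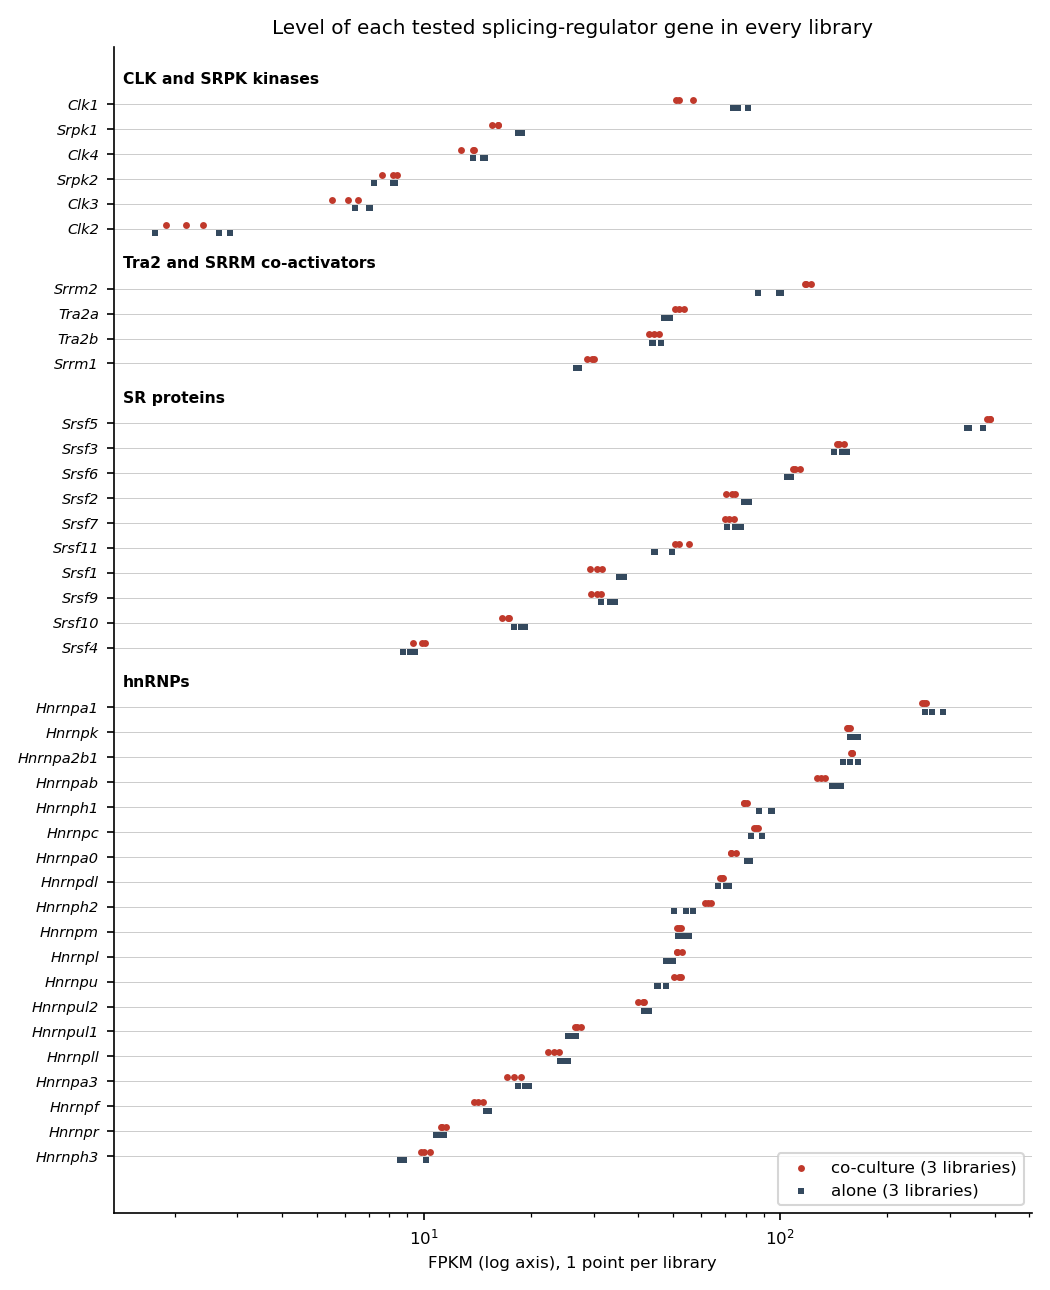
Each row is 1 tested gene and each point its FPKM in 1 library on a log axis, with the 3 co-culture libraries as circles above and the 3 libraries of cells alone as squares below. The genes span 2.29 FPKM (Clk2) to 367 FPKM (Srsf5) in their mean over the 6 libraries, and the gap between circles and squares is widest for Clk1.

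In mm10 coordinates counted from 1, Clk1 lies on chromosome 1 from 58411988 to 58424088, Srpk1 on chromosome 17 from 28587648 to 28622528, Srsf1 on chromosome 11 from 88046499 to 88053757 and Srsf2 on chromosome 11 from 116849897 to 116853675. Hnrnph1 lies on chromosome 11 from 50375257 to 50386528, Hnrnpa0 on chromosome 13 from 58125879 to 58128556, Srrm2 on chromosome 17 from 23790527 to 23824741, Hnrnph2 on chromosome X from 134601179 to 134607060 and Hnrnpu on chromosome 1 from 178321108 to 178338891. The 250 bases before an annotated start are shown for 4 of these 9 genes. Clk1 had no entry in the promoter table, and the windows of Srpk1, Srsf1, Srsf2 and Hnrnph2 overlapped an exon in GENCODE M21. The others are shown as the bases before the first listed start, and whether they regulate these genes was not tested. Hnrnph1 and Hnrnpa0 were lower and Srrm2 and Hnrnpu higher in co-culture. The sequences are from RefSeq on GRCm38.p6, read 5′ to 3′ on the strand of the gene, and capitals mark TGACG (the core of the cyclic AMP response element) and CCAAT (the CCAAT box) on either strand. The windows of Hnrnph1, Srrm2 and Hnrnpu lie inside the full extent that RefSeq gives these genes.
Hnrnph1 (chr11:50376740-50376989, plus strand): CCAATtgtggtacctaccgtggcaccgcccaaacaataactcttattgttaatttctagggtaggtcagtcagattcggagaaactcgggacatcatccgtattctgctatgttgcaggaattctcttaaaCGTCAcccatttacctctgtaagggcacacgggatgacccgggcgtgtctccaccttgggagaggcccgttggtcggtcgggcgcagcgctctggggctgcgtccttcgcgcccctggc
Hnrnpa0 (chr13:58128557-58128806, minus strand): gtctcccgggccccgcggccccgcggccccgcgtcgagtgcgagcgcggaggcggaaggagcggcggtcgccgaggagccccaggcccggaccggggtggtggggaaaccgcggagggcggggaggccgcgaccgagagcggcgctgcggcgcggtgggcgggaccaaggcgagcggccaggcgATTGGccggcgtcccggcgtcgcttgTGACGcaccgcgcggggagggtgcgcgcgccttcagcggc
Srrm2 (chr17:23802937-23803186, plus strand): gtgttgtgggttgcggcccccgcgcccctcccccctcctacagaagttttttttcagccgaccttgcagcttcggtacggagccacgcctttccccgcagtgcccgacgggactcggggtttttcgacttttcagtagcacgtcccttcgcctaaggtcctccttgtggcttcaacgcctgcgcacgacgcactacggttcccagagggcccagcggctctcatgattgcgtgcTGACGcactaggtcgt
Hnrnpu (chr1:178337816-178338065, minus strand): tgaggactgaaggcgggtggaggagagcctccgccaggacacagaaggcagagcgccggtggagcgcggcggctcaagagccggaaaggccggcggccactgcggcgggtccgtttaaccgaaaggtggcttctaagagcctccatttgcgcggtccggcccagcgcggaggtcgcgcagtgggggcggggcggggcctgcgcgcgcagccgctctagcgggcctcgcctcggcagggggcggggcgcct

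Hnrnph1, Hnrnpa0 and Srrm2 each had 1 TGACG and Hnrnpu had none, and CCAAT occurred once each in Hnrnph1 and Hnrnpa0. Among the 37 of 40 genes with an entry, 21 windows held TGACG on either strand (56.8%), against 29.2% of the windows of 8152 tested genes. CCAAT occurred in 19 windows (51.4%), against 37.7%. The full response element TGACGTCA, which contains TGACG, occurred in 2 (Clk4 and Tra2a; 5.41%, against 2.86%), and the ETS core CCGGAAG in 6 (16.2%, against 15.5%). The 37 include the untested Hnrnpa1l2-ps2, and the 8152 hold tested genes only, the tested splicing regulators with an entry among them. The first listed start was used for the 8 genes with several. Windows that overlap an exon, such as that of Srsf1, were counted too. Genes with TGACG included called genes, such as Srsf1 and Srrm2, and uncalled genes, such as Clk2 and Hnrnpk. Whether the motif goes with the calls was not tested. All these counts are matches of letters, and the motifs were picked with the results known.

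Among the kinases the CLK and SRPK families each had 1 gene that fell. Clk1 encodes a dual-specificity kinase of the nucleus. It had 56.9, 51.0 and 52.1 FPKM in co-culture, against 81.4, 76.0 and 73.6 FPKM in cells alone. Every co-culture library lay below every library of cells alone, and Clk1 averaged 53.3 ± 3.13 FPKM in co-culture and 77.0 ± 4.02 FPKM alone (SD, n = 3 each), 1.44-fold lower (log2 change −0.52, SE 0.0499, adjusted p = 3.75e-05). Clk4, its closest paralog, had 12.8, 13.8 and 13.7 FPKM in co-culture, against 14.8, 13.8 and 14.6 FPKM in cells alone, and the groups overlapped (log2 change −0.094, SE 0.0474, adjusted p = 0.156). Clk3, a related nuclear kinase, had 6.14, 5.54 and 6.55 FPKM in co-culture, against 7.02, 6.40 and 7.05 FPKM in cells alone (log2 change −0.15, SE 0.0630, adjusted p = 0.103). Clk2, the least expressed of the 4, had 1.89, 2.40 and 2.15 FPKM in co-culture, against 2.67, 2.85 and 1.76 FPKM in cells alone and the widest error of all 39 genes (log2 change −0.11, SE 0.114, adjusted p = 0.484). Of Clk2, Clk3 and Clk4 none passed the test. The adjusted p of Clk2 was 0.0413 without alone replicate 3, the library with the lowest of the 6 values. The differences of Clk2, Clk3 and Clk4 were all negative, as was that of Clk1. Over all 10055 tested genes 5116 had a negative log2 change.

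Clk1 supplied most of the CLK transcript in both groups. Its share of the summed CLK FPKM was 71.1 ± 1.87% in co-culture and 76.5 ± 0.560% alone (SD, n = 3 each), and the summed CLK FPKM was 77.7, 72.7 and 74.6 in co-culture, against 106, 99.0 and 97.0 alone. The ratio of Clk1 to Clk4 FPKM was 4.46, 3.69 and 3.79 in co-culture, against 5.49, 5.52 and 5.03 alone. The ranges of the 2 groups were separate. A design of 3 libraries against 3 gives an exact two-sided permutation p of at least 0.1, and that was the value here. This ratio was chosen after its values were seen.

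Srpk1, the SR protein kinase that is broadly expressed, had 15.5, 16.1 and 16.2 FPKM in co-culture, against 18.4, 18.8 and 18.4 FPKM in cells alone. The groups did not overlap, and Srpk1 was 1.16-fold lower (log2 change −0.21, SE 0.0385, adjusted p = 0.00262). Its paralog Srpk2 had 8.41, 8.20 and 7.62 FPKM in co-culture, against 7.26, 8.30 and 8.18 FPKM in cells alone, with overlapping groups (log2 change 0.027, SE 0.0589, adjusted p = 0.758). Of the 6 kinase genes 0 rose and 2 fell (0% and 33.3%), against 13.9% and 17.9% of all tested genes. Their median log2 change was −0.13. The numbers that rose and fell were 0 and 3 without alone replicate 3. By limma the count of kinases higher at an unadjusted p below 0.05 was also 0, and limma-voom on the recovered reads called 0 higher.

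Among the co-activators the clearest change was that of Srrm2. Srrm2, a very long scaffold protein of nuclear speckles, had 122, 118 and 117 FPKM in co-culture, against 86.9, 99.5 and 100.3 FPKM in cells alone. All co-culture values exceeded all values alone, and Srrm2 averaged 119 ± 2.75 FPKM in co-culture and 95.6 ± 7.51 FPKM alone (SD, n = 3 each; log2 change 0.32, SE 0.0522, adjusted p = 0.00127). Srrm1, which bridges SR proteins and the splicing machinery, had 30.1, 28.6 and 29.6 FPKM in co-culture, against 27.0, 27.2 and 26.7 FPKM in cells alone, again without overlap (1.09-fold higher, log2 change 0.12, SE 0.0363, adjusted p = 0.0258). Tra2a, an SR-like protein that binds purine-rich exonic enhancers, had 50.8, 53.9 and 52.0 FPKM in co-culture, against 48.9, 47.4 and 48.8 FPKM in cells alone (1.08-fold higher, log2 change 0.11, SE 0.0360, adjusted p = 0.0419). Tra2b, its paralog, had 42.8, 44.4 and 45.8 FPKM in co-culture, against 46.3, 43.7 and 43.9 FPKM in cells alone, and the groups overlapped (log2 change −0.0094, SE 0.0397, adjusted p = 0.875).

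Of the 4 co-activators 3 rose and 0 fell (75% and 0%), against 13.9% and 17.9% of all tested genes. Their summed FPKM was 246, 245 and 245 in co-culture, against 209, 218 and 219.7 alone. Most of that difference lay in Srrm2. By comparison Srrm1 averaged 29.5 ± 0.756 FPKM in co-culture and 27.0 ± 0.279 FPKM alone. Tra2a averaged 52.2 ± 1.55 FPKM in co-culture and 48.4 ± 0.876 FPKM alone. Tra2b averaged 44.3 ± 1.48 FPKM in co-culture and 44.6 ± 1.49 FPKM alone. At an unadjusted p below 0.05 limma found 0 lower, and limma-voom also called 0 lower. The calls on Srrm1 and Tra2a depended on single libraries. The adjusted p of Srrm1 was 0.102 without co-culture replicate 1, 0.0791 without co-culture replicate 3, 0.0534 without alone replicate 2 and 0.0744 without alone replicate 3. For Tra2a it was 0.0545 without co-culture replicate 1, 0.137 without co-culture replicate 2, 0.0970 without co-culture replicate 3, 0.131 without alone replicate 2 and 0.0731 without alone replicate 3. The 3 higher co-activators accordingly numbered 1 without co-culture replicate 1 or 3 or without alone replicate 2 or 3, and also 1 when values were rescaled to TPM.

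**Figure D2:**
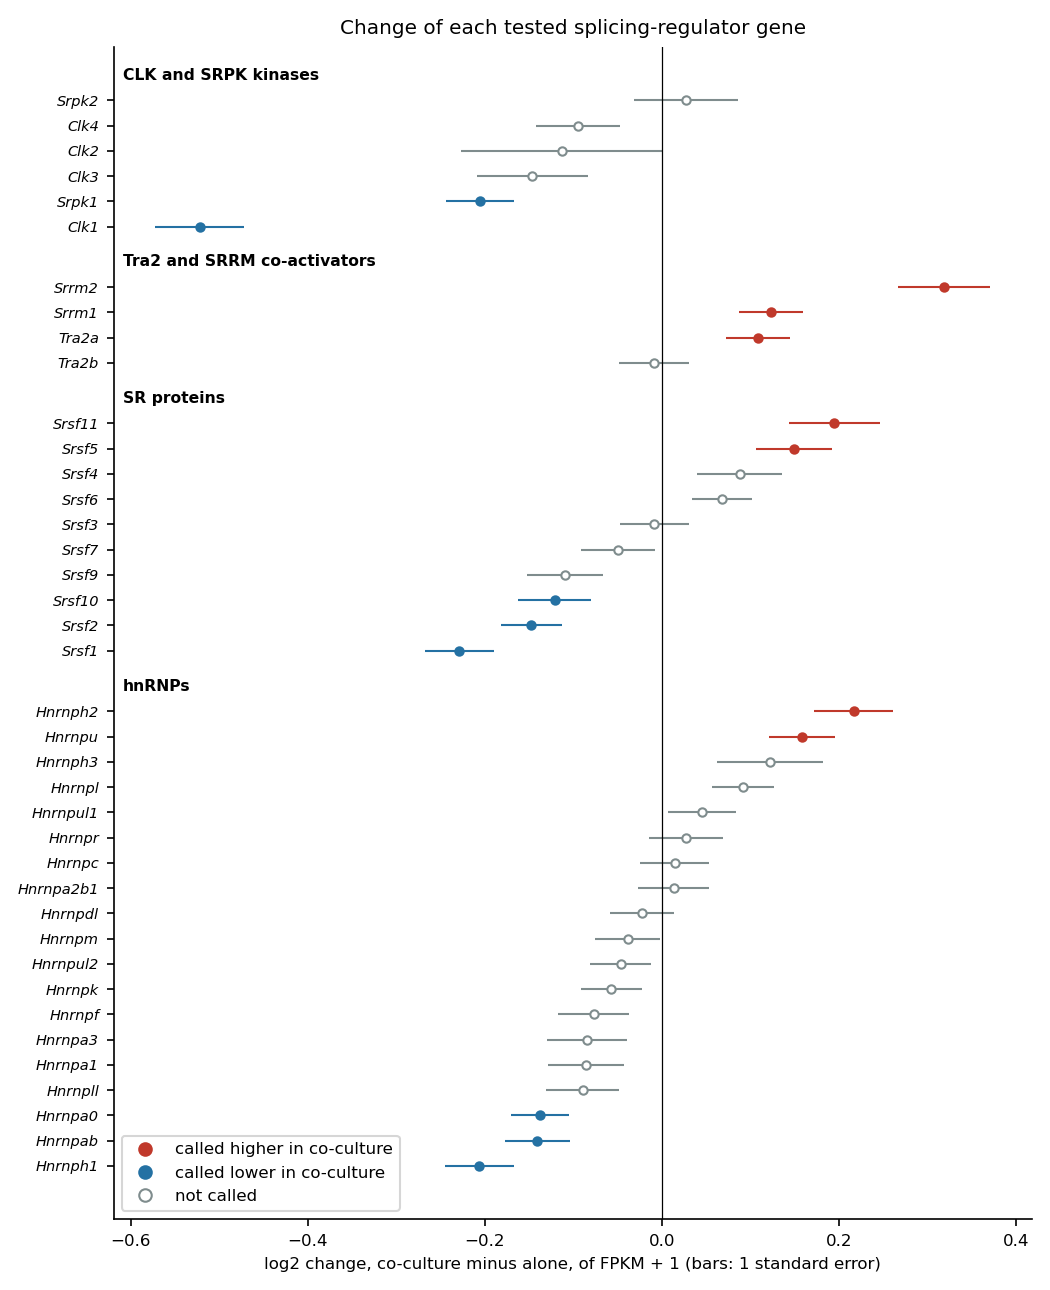
Each point is the log2 change of FPKM + 1 (co-culture minus alone) of 1 tested gene with a bar of 1 standard error, ordered within its class. Filled red points were called higher, filled blue points lower, and open points were not called. Clk1 stands farthest to the left at −0.52 and Srrm2 farthest to the right at 0.32.

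SR protein genes split. Srsf1, the first SR protein described and a shuttling splicing activator, had 29.3, 31.7 and 30.7 FPKM in co-culture, against 36.2, 35.4 and 36.5 FPKM in cells alone. The groups did not overlap (1.18-fold lower, log2 change −0.23, SE 0.0390, adjusted p = 0.00157). Srsf2, which remains in the nucleus and is a component of speckles, had 74.6, 73.2 and 70.6 FPKM in co-culture, against 80.99, 79.3 and 81.8 FPKM in cells alone, also without overlap (1.11-fold lower, log2 change −0.15, SE 0.0349, adjusted p = 0.00927). Srsf10, which acts as a splicing repressor when dephosphorylated, had 17.4, 17.2 and 16.6 FPKM in co-culture, against 18.8, 18.0 and 19.3 FPKM in cells alone (1.09-fold lower, log2 change −0.12, SE 0.0417, adjusted p = 0.0469). That call was close to the threshold, with an adjusted p of 0.0769 without co-culture replicate 1, 0.0824 without co-culture replicate 2, 0.157 without co-culture replicate 3, 0.0789 without alone replicate 1 and 0.148 without alone replicate 3.

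Srsf5 had the highest level of all 39 genes. It had 381, 389 and 388 FPKM in co-culture, against 370.1, 336 and 338 FPKM in cells alone, and every co-culture value exceeded every value alone (1.11-fold higher, log2 change 0.15, SE 0.0428, adjusted p = 0.0226). Its share of the summed SR protein FPKM was 41.5 ± 0.422% in co-culture and 38.6 ± 1.09% alone (SD, n = 3 each). The adjusted p of Srsf5 was 0.0531 without co-culture replicate 1, 0.0669 without co-culture replicate 2, 0.0754 without co-culture replicate 3, 0.0922 without alone replicate 2 and 0.0727 without alone replicate 3. The highest value alone was in replicate 1, and without that library the adjusted p was 0.000961. Srsf11, a larger SR-related protein, had 55.7, 52.2 and 50.8 FPKM in co-culture, against 44.5, 44.3 and 49.6 FPKM in cells alone (1.15-fold higher, log2 change 0.19, SE 0.0509, adjusted p = 0.0151), with an adjusted p of 0.0613 without co-culture replicate 1 and 0.0580 without alone replicate 2.

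The remaining SR protein genes were not called. Srsf3, among the smallest SR proteins and also an export adaptor, had 145, 151 and 146 FPKM in co-culture, against 154, 141 and 149 FPKM in cells alone (log2 change −0.0086, SE 0.0392, adjusted p = 0.884). Srsf7, the SR protein with a zinc knuckle, had 70.0, 74.4 and 71.7 FPKM in co-culture, against 77.9, 71.0 and 75.0 FPKM in cells alone (log2 change −0.050, SE 0.0417, adjusted p = 0.395). Both overlapped between groups, while Srsf6 and Srsf9 did not. Srsf6, which carries a long arginine-serine tail, had 109, 114 and 110.0 FPKM in co-culture, against 107, 105 and 105 FPKM in cells alone (log2 change 0.068, SE 0.0337, adjusted p = 0.151). Srsf9, whose tail is short, had 30.7, 31.48 and 29.5 FPKM in co-culture, against 31.49, 33.2 and 34.4 FPKM in cells alone (log2 change −0.11, SE 0.0430, adjusted p = 0.0761). Its adjusted p was 0.0270 without alone replicate 1. Srsf4, a relative of Srsf6 and the SR protein gene with the lowest level, had 9.86, 10.1 and 9.32 FPKM in co-culture, against 8.77, 9.12 and 9.45 FPKM in cells alone (log2 change 0.088, SE 0.0483, adjusted p = 0.192). Of the 10 SR protein genes 2 rose and 3 fell (20% and 30%), against 13.9% and 17.9% of all tested genes. The higher count was 0 without co-culture replicate 1 or alone replicate 2 and 1 without co-culture replicate 2 or 3 or alone replicate 3. The summed SR protein FPKM overlapped between groups (921, 944 and 923 in co-culture, against 929.7, 872 and 898 alone).

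The hnRNP genes H1 and H2 went in opposite directions. Hnrnph1 and Hnrnph2 encode closely related proteins that bind runs of guanines. Hnrnph1 had 79.1, 80.7 and 79.4 FPKM in co-culture, against 94.6, 87.3 and 94.7 FPKM in cells alone (1.16-fold lower, log2 change −0.21, SE 0.0391, adjusted p = 0.00277). Hnrnph2, on the X chromosome, had 61.5, 64.0 and 62.7 FPKM in co-culture, against 56.8, 50.5 and 54.5 FPKM in cells alone (1.16-fold higher, log2 change 0.22, SE 0.0443, adjusted p = 0.00426). Neither gene's groups overlapped. The ratio of Hnrnph2 to Hnrnph1 FPKM was 0.778, 0.793 and 0.790 in co-culture, against 0.600, 0.579 and 0.575 alone, with an exact two-sided permutation p of 0.1, the smallest possible, for a ratio chosen after its values were seen. The treatment of reads that match both genes is not stated, and the level of each is uncertain to that extent. Hnrnph3, the smaller relative, had co-culture values of 10.4, 10.00 and 9.79 FPKM, against 8.82, 8.596 and 10.1 FPKM alone (log2 change 0.12, adjusted p = 0.148, and 0.0263 without alone replicate 3). Hnrnpf, the other close relative, had 13.8, 14.2 and 14.6 FPKM in co-culture, against 15.03, 14.9 and 15.2 FPKM in cells alone (log2 change −0.077, adjusted p = 0.169).

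Of the other hnRNP genes, Hnrnpu rose and Hnrnpa0 and Hnrnpab fell. Hnrnpu, a scaffold-attachment protein that binds both DNA and RNA, had 52.6, 52.0 and 50.4 FPKM in co-culture, against 45.6, 45.1 and 48.0 FPKM in cells alone, without overlap (1.12-fold higher, log2 change 0.16, SE 0.0373, adjusted p = 0.00917). Hnrnpa0, an intronless gene of the A/B subfamily, had 75.4, 72.9 and 72.8 FPKM in co-culture, against 82.1, 80.9 and 80.5 FPKM in cells alone (1.10-fold lower, log2 change −0.14, SE 0.0327, adjusted p = 0.00936). Hnrnpab, of the same subfamily, had 127, 134 and 131 FPKM in co-culture, against 148, 139.9 and 144 FPKM in cells alone (1.10-fold lower, log2 change −0.14, SE 0.0364, adjusted p = 0.0144), and its adjusted p was 0.0683 without co-culture replicate 1. All values of both genes were lower in co-culture.

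The other 14 tested hnRNP genes were not called, with log2 changes of −0.090 (Hnrnpll) to 0.12 (Hnrnph3) and adjusted p of 0.0686 to 0.828. Among them were the most abundant members. Hnrnpa1, the core A-type protein that often silences exons, averaged 254 ± 2.91 FPKM in co-culture and 269.7 ± 15.3 FPKM alone (SD, n = 3 each; log2 change −0.086, adjusted p = 0.152), and alone replicate 1 was the highest of its 6 values at 286 FPKM. Hnrnpa1 has processed pseudogenes, so its level is uncertain. Hnrnpk, which binds runs of cytosines, averaged 155 ± 1.54 FPKM in co-culture and 162 ± 4.52 FPKM alone (log2 change −0.057, adjusted p = 0.229). Hnrnpa2b1, which also takes part in RNA transport, averaged 159 ± 0.533 FPKM in co-culture and 158 ± 7.84 FPKM alone (log2 change 0.013, adjusted p = 0.828). Hnrnpc, which binds runs of uridines, averaged 85.7 ± 1.15 FPKM in co-culture and 84.9 ± 3.79 FPKM alone (log2 change 0.014, adjusted p = 0.807). For these 4 the groups overlapped.

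In 4 uncalled hnRNP genes the groups did not overlap, namely Hnrnpf, Hnrnpl, Hnrnpll and Hnrnpul2. Hnrnpl, a repressor that binds CA repeats, averaged 51.9 ± 0.940 FPKM in co-culture and 48.7 ± 1.11 FPKM alone (log2 change 0.091, adjusted p = 0.0686, and 0.0353 without alone replicate 1), and its relative Hnrnpll averaged 23.1 ± 0.856 FPKM in co-culture and 24.7 ± 0.658 FPKM alone (log2 change −0.090, adjusted p = 0.122). Hnrnpul2, a relative of Hnrnpu, averaged 40.9 ± 0.790 FPKM in co-culture and 42.3 ± 0.719 FPKM alone (log2 change −0.047, adjusted p = 0.330). In the last 5 the groups overlapped. Hnrnpa3, of the A/B subfamily, averaged 18.0 ± 0.809 FPKM in co-culture and 19.1 ± 0.678 FPKM alone. Hnrnpdl, a relative of the AU-rich element binding proteins, averaged 68.6 ± 0.641 FPKM in co-culture and 69.7 ± 2.55 FPKM alone. Hnrnpm, a regulator of exon skipping, averaged 52.0 ± 0.641 FPKM in co-culture and 53.4 ± 1.97 FPKM alone. Hnrnpr, the closest relative of Syncrip, averaged 11.3 ± 0.175 FPKM in co-culture and 11.1 ± 0.304 FPKM alone. Hnrnpul1, a relative of Hnrnpu, averaged 27.0 ± 0.523 FPKM in co-culture and 26.2 ± 0.762 FPKM alone. Of the 19 tested hnRNP genes 2 rose and 3 fell (10.5% and 15.8%), close to the shares over all genes, and their summed FPKM was 1369, 1381 and 1358 in co-culture, against 1457, 1361 and 1415 alone.

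**Figure D3:**
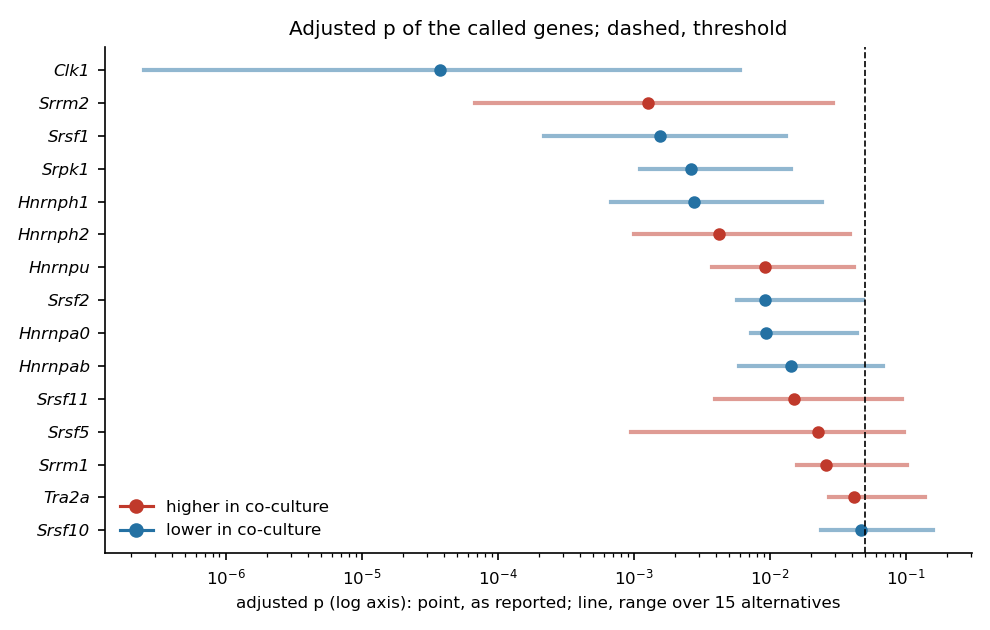
Each row is 1 of the 15 genes called, with the reported adjusted p as a point on a log axis and its range over 15 alternatives as a line. The dashed line is the threshold of 0.05. The lines of Clk1, Srrm2, Srsf1, Srpk1, Hnrnph1, Hnrnph2, Hnrnpu, Srsf2 and Hnrnpa0 stay to its left, and the other 6 cross it.

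Unproductive transcripts, which the choice of members did not use, are annotated for many but not all of the 39 genes. In GENCODE M21, 28 of them (71.8%) have a transcript classed as a target of nonsense-mediated decay, against 30.1% of 9622 other tested protein-coding genes. A retained-intron transcript is annotated for 31 (79.5%), against 62.5%. The median number of annotated transcripts was also higher, at 9 against 5. All 6 kinase genes and all 4 co-activators have both classes, as do most SR protein genes (9 of 10 with a decay target, 8 of 10 with a retained intron), while among hnRNP genes 9 of 19 have a decay target and 13 of 19 a retained intron. Clk1 has 13 annotated transcripts, of which 7 retain an intron and 2 are decay targets. The deposited table gives 1 value per gene, so productive and unproductive isoforms cannot be told apart.

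Exons of 10 of the genes overlap those of a gene on the other strand, and the sources do not state whether counting used strand, so reads there cannot be assigned. Among the called genes these are Srrm2 (Elob), Srsf2 (Mfsd11 and Mettl23), Hnrnpu (Cox20) and Hnrnpab (Phykpl). Elob, next to Srrm2, averaged 215 ± 2.36 FPKM in co-culture and 231 ± 4.02 FPKM alone (log2 change −0.11, adjusted p = 0.0288) and so fell while Srrm2 rose. Cox20, next to Hnrnpu, averaged 6.14 ± 0.463 FPKM in co-culture and 5.11 ± 0.485 FPKM alone (log2 change 0.23, adjusted p = 0.0322) and rose as Hnrnpu did, at a far lower level. The neighbours of Srsf2 and Hnrnpab were not called. Mfsd11 averaged 7.89 ± 0.151 FPKM in co-culture and 7.05 ± 0.495 FPKM alone (log2 change 0.14, adjusted p = 0.0645). Mettl23 averaged 5.98 ± 0.0939 FPKM in co-culture and 5.09 ± 0.956 FPKM alone (log2 change 0.21, adjusted p = 0.104). Phykpl averaged 1.55 ± 0.0695 FPKM in co-culture and 1.30 ± 0.143 FPKM alone (log2 change 0.15, adjusted p = 0.122). The part of shared reads in these results was not tested.

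Other genes of the splicing pathway were read from the same fit, beside the background of 13.9% higher and 17.9% lower. Nuclear speckle and RS-rich genes had 7 of 24 tested members higher and 2 lower (median log2 change 0.033). The higher count was 5 to 7 when 1 library was left out and 5 with no filter. It was 8 with median-ratio scaling or limma-voom, and 4 at an adjusted p threshold of 0.01. The higher genes with the smallest p were Cwc22, Pnisr, Arglu1 and Luc7l2. Cwc22, a spliceosome protein that helps place the exon junction complex, averaged 112 ± 1.87 FPKM in co-culture and 88.0 ± 2.18 FPKM alone (log2 change 0.34, adjusted p = 5.41e-05). Pnisr, an SR-related speckle protein, averaged 9.85 ± 0.141 FPKM in co-culture and 7.28 ± 0.134 FPKM alone (log2 change 0.39, adjusted p = 0.000111). Arglu1, a splicing factor that also serves nuclear receptors as co-activator, averaged 41.8 ± 0.637 FPKM in co-culture and 34.8 ± 1.36 FPKM alone (log2 change 0.26, adjusted p = 0.000745). Luc7l2, a protein of the U1 particle, averaged 32.0 ± 1.65 FPKM in co-culture and 23.9 ± 2.67 FPKM alone (log2 change 0.41, adjusted p = 0.00146). The 2 that fell were Rbm39 and Neat1. Rbm39, an SR-like co-activator, averaged 74.4 ± 0.777 FPKM in co-culture and 92.0 ± 0.429 FPKM alone (log2 change −0.30, adjusted p = 6.44e-05). Neat1, the long RNA on which paraspeckles form, averaged 18.7 ± 1.94 FPKM in co-culture and 28.2 ± 2.05 FPKM alone (log2 change −0.57, adjusted p = 0.000245). Here and below errors are SD with n = 3 in each group.

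Enzymes and importins that act on SR proteins and hnRNPs had 10 of 22 lower and 1 higher (median log2 change −0.092). The lower count was 5 without co-culture replicate 3, 6 without alone replicate 2 and 5 without alone replicate 3. Arginine methyltransferases, which modify many hnRNPs, were among those that fell. Prmt6 averaged 5.43 ± 0.0797 FPKM in co-culture and 7.66 ± 0.531 FPKM alone (log2 change −0.43, adjusted p = 0.000283). Prmt1, the main asymmetric arginine methyltransferase, averaged 43.4 ± 1.60 FPKM in co-culture and 52.4 ± 0.512 FPKM alone (log2 change −0.27, adjusted p = 0.000448). Tnpo2, a transportin that imports hnRNPs, averaged 14.0 ± 0.553 FPKM in co-culture and 17.8 ± 0.465 FPKM alone (log2 change −0.33, adjusted p = 0.000355). Top1, topoisomerase I, reported also to phosphorylate SR proteins, averaged 72.4 ± 1.51 FPKM in co-culture and 85.4 ± 2.34 FPKM alone (log2 change −0.23, adjusted p = 0.000758). The 1 that rose was a nuclear targeting subunit of protein phosphatase 1. Ppp1r10 averaged 33.3 ± 2.01 FPKM in co-culture and 19.7 ± 0.782 FPKM alone (log2 change 0.73, adjusted p = 3.69e-06).

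Among 18 hnRNPs known by other symbols 4 rose and 6 fell (median log2 change −0.033). Fubp1, which binds single-stranded DNA upstream of Myc as well as RNA, averaged 15.9 ± 0.918 FPKM in co-culture and 11.3 ± 0.732 FPKM alone (log2 change 0.46, adjusted p = 0.000207). Ptbp2, the polypyrimidine tract binding protein best known from neurons, averaged 17.2 ± 0.299 FPKM in co-culture and 14.7 ± 0.244 FPKM alone (log2 change 0.21, adjusted p = 0.00218). Tardbp, which represses cryptic exons, averaged 24.5 ± 0.996 FPKM in co-culture and 20.9 ± 0.945 FPKM alone (log2 change 0.22, adjusted p = 0.00474). Ewsr1, a protein of the FET family, averaged 60.0 ± 1.15 FPKM in co-culture and 54.9 ± 1.18 FPKM alone (log2 change 0.13, adjusted p = 0.0182). In these 4 the rise ran from 0.13 to 0.46 on the log2 scale. The falls with the smallest p were those of Syncrip, Elavl1, Ptbp3 and Pcbp1. Syncrip, hnRNP Q, averaged 29.1 ± 1.22 FPKM in co-culture and 34.0 ± 1.19 FPKM alone (log2 change −0.21, adjusted p = 0.00361). Elavl1, which stabilises mRNAs with AU-rich elements, averaged 9.72 ± 0.351 FPKM in co-culture and 11.8 ± 0.697 FPKM alone (log2 change −0.25, adjusted p = 0.00402). Ptbp3, another polypyrimidine tract binding protein, averaged 10.4 ± 0.157 FPKM in co-culture and 12.0 ± 0.582 FPKM alone (log2 change −0.20, adjusted p = 0.00948). Pcbp1, which binds runs of cytosines, averaged 117 ± 1.01 FPKM in co-culture and 128 ± 1.22 FPKM alone (log2 change −0.12, adjusted p = 0.0123). The 6 lower genes of the list numbered 4 or 5 whichever library was left out, and 3 at an adjusted p threshold of 0.01. Among the genes named here, leaving out 1 library ended 2 calls. The adjusted p of Ewsr1 was 0.0772 without co-culture replicate 1 and 0.0676 without alone replicate 2, and that of Pcbp1 was 0.0563 without co-culture replicate 1.

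The core spliceosome had 4 of 38 genes higher and 1 lower (median log2 change 0.0057), and 8 higher without alone replicate 1. The lower count was 2 without alone replicate 1 or co-culture replicate 3. The genes that rose were branch-site proteins and helicases. Sf3b1 averaged 95.2 ± 0.838 FPKM in co-culture and 83.9 ± 2.14 FPKM alone (log2 change 0.18, adjusted p = 0.00248). Sf3b3, of the same complex, averaged 93.7 ± 0.995 FPKM in co-culture and 82.6 ± 2.81 FPKM alone (log2 change 0.18, adjusted p = 0.00341). Ddx23, a helicase that is a known SRPK substrate, averaged 45.1 ± 1.11 FPKM in co-culture and 40.7 ± 0.617 FPKM alone (log2 change 0.15, adjusted p = 0.0105). Dhx38, another spliceosome helicase, averaged 13.7 ± 1.29 FPKM in co-culture and 11.5 ± 0.460 FPKM alone (log2 change 0.23, adjusted p = 0.0157). The gene that fell encodes an Sm protein. Snrpb averaged 58.1 ± 0.432 FPKM in co-culture and 66.4 ± 2.40 FPKM alone (log2 change −0.19, adjusted p = 0.00303). The adjusted p of Ddx23 was 0.0502 without co-culture replicate 1, and that of Dhx38 was 0.0506 without alone replicate 3.

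Of 15 genes of nonsense-mediated decay, the surveillance pathway that removes unproductive isoforms, 2 rose and 2 fell (median log2 change 0.029). Smg6 and Upf3b rose. Smg6, the endonuclease of the pathway, averaged 11.1 ± 0.174 FPKM in co-culture and 9.72 ± 0.431 FPKM alone (log2 change 0.18, adjusted p = 0.0134). Upf3b, which links the pathway to the exon junction complex, averaged 10.3 ± 0.431 FPKM in co-culture and 9.12 ± 0.580 FPKM alone (log2 change 0.16, adjusted p = 0.0493). Smg5 and Magohb fell. Smg5, which recruits phosphatase and decay enzymes to Upf1, averaged 7.22 ± 0.381 FPKM in co-culture and 8.71 ± 0.182 FPKM alone (log2 change −0.24, adjusted p = 0.00447). Magohb, a subunit of the exon junction complex, averaged 4.36 ± 0.498 FPKM in co-culture and 5.53 ± 0.241 FPKM alone (log2 change −0.29, adjusted p = 0.0107). The rise of Upf3b rested on all libraries but 1. Its adjusted p was 0.0579 without co-culture replicate 1, 0.154 without co-culture replicate 2, 0.103 without co-culture replicate 3, 0.175 without alone replicate 2 and 0.0886 without alone replicate 3, and the count of higher genes was then 1.

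Among 19 other splicing regulators 3 rose and 3 fell (median log2 change −0.025). Zranb2, a zinc finger protein that binds 5′ splice sites, averaged 30.3 ± 0.704 FPKM in co-culture and 27.3 ± 0.704 FPKM alone (log2 change 0.15, adjusted p = 0.0147). Nono, a paraspeckle protein, averaged 211 ± 3.93 FPKM in co-culture and 192 ± 5.27 FPKM alone (log2 change 0.13, adjusted p = 0.0151). Ddx5, a helicase that acts in splicing and transcription, averaged 360.3 ± 2.96 FPKM in co-culture and 331 ± 4.70 FPKM alone (log2 change 0.12, adjusted p = 0.0169). These 3 rises were of similar size. Mbnl1, muscleblind, averaged 23.7 ± 0.529 FPKM in co-culture and 28.3 ± 0.784 FPKM alone (log2 change −0.24, adjusted p = 0.000951). Pspc1, another paraspeckle protein, averaged 18.5 ± 0.852 FPKM in co-culture and 21.3 ± 1.59 FPKM alone (log2 change −0.19, adjusted p = 0.0238). Tia1, which binds uridine-rich sequence near 5′ splice sites, averaged 10.8 ± 0.774 FPKM in co-culture and 12.2 ± 0.351 FPKM alone (log2 change −0.17, adjusted p = 0.0351). Mbnl1 was the 1 of these 6 whose call held whichever library was left out. The higher count was 0 without co-culture replicate 3 and 1 without alone replicate 2, and the lower count was 1 without co-culture replicate 3 or alone replicate 3. The adjusted p of Zranb2 was 0.0637 without co-culture replicate 3, and that of Nono was 0.0717 without co-culture replicate 3 and 0.0571 without alone replicate 2. For Ddx5 it was 0.0608 without co-culture replicate 1, 0.0583 without co-culture replicate 2, 0.0566 without co-culture replicate 3 and 0.0683 without alone replicate 2. For Pspc1 it was 0.0653 without co-culture replicate 2, 0.0880 without co-culture replicate 3, 0.0534 without alone replicate 1 and 0.0863 without alone replicate 3. For Tia1 it was 0.108 without co-culture replicate 1, 0.129 without co-culture replicate 3, 0.0823 without alone replicate 2 and 0.106 without alone replicate 3.

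Of the 2 cold-inducible RNA-binding proteins, Cirbp had 27.9, 25.6 and 26.2 FPKM in co-culture, against 17.4, 18.0 and 18.0 FPKM in cells alone. The groups did not overlap, and Cirbp was 1.49-fold higher (log2 change 0.55, SE 0.0427, adjusted p = 9.35e-06), a change as large as that of Clk1 with the opposite sign. Rbm3 had 55.3, 61.5 and 58.1 FPKM in co-culture, against 57.2, 56.1 and 55.4 FPKM in cells alone, with overlapping groups (log2 change 0.049, SE 0.0420, adjusted p = 0.402).

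**Figure D4:**
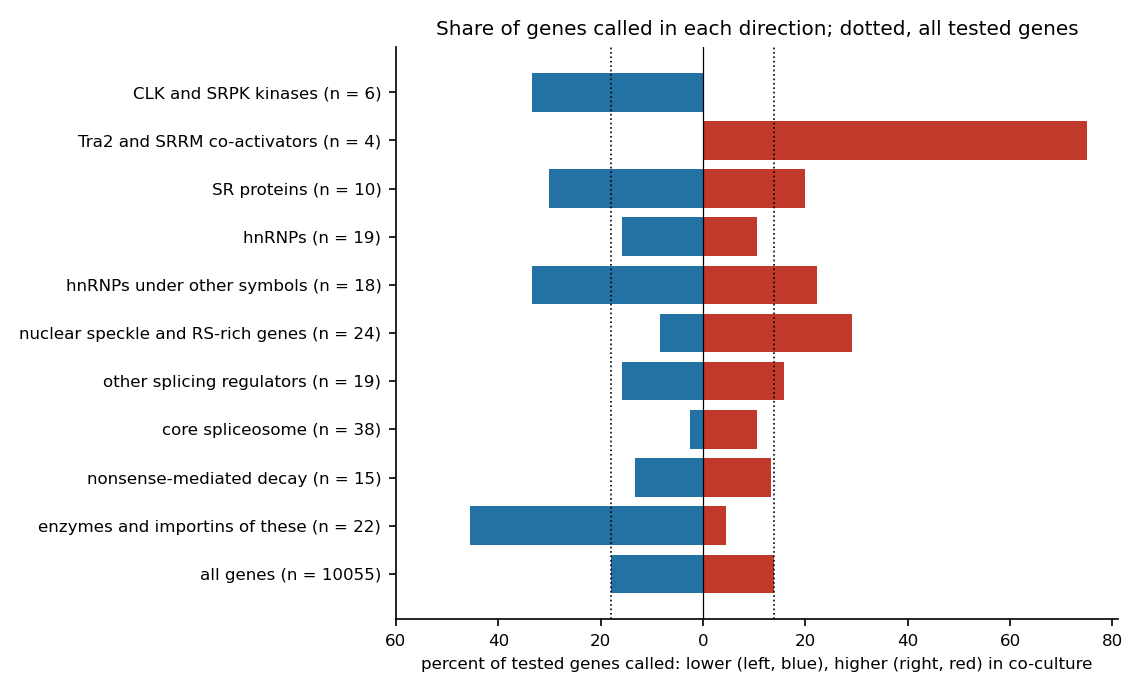
Bars give the percentage of tested genes of each list called lower (left, blue) or higher (right, red) in co-culture, with the number tested in brackets, and the dotted lines mark all 10055 tested genes. The hnRNPs lie close to the dotted lines at 10.5% higher and 15.8% lower, and the enzymes and importins reach 45.5% lower.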

How the data were processed

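The deposited table holds FPKM values as the authors computed them. The tools named in the submitters' processing notes are fastp, HISAT2 and HTSeq, and the build is mm10, with no version, setting or annotation. Per the labels' protocols, TRIzol was used for extraction of total RNA and the VAHTS Universal V6 kit for libraries. All 6 columns matched a sample by name.

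The steps of the FPKM values gave whole reads for all 21436 genes (tolerance 1e-06 on ratios between libraries), scaled to the 1545 bp length of mt-Co1. The 39 tested splicing regulators had 130 to 53210 reads per library, which bounds counting error only, as there were no molecular identifiers.

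The test was limma 3.58.1 (R 4.3.3, trended eBayes) on log2(FPKM + 1) for the 10055 genes averaging 1 FPKM or more, as the co-culture mean minus the mean alone, with Benjamini-Hochberg adjustment over all 10055. This scale understates changes of low genes. Folds are ratios of mean FPKM. Tested on simulated reads for these genes, the fit recovered 58% of 1.25-fold and 96% of 1.5-fold changes. The simulation changed 50 genes at each of 1.25-, 1.5-, 2- and 3-fold. It gave 191 calls, 7.33% of them on unchanged genes, where the data gave 3201 calls. Far fewer genes changed in it, so these shares do not carry over to the data. Of the 15 called splicing regulators 14 lay below 1.25-fold. The 15 alternatives included pseudocounts of 0.1 and 0.01, no filter, a filter at 5 FPKM, median-ratio and TPM scaling and no trend. The rest were a replicate block, limma-voom on recovered reads and each library left out. A threshold of 0.01 was tried as well and is not among the 15.

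The genes and lists were chosen with earlier results of these data known. From each of the other lists, up to 4 genes per direction with the smallest p are named. Coordinates are from RefSeq and transcript classes from GENCODE M21. A description of the proteins was planned, and protein sequences were not used here.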

Additional observations from a re-analysis of the deposited data

How the results depend on the processing

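The 7 higher genes numbered 4 with no filter on low values, 3 at an adjusted p threshold of 0.01, and 3 to 8 when 1 library was left out, while the 8 lower genes numbered 6 to 8 over every setting tried. Over all genes the higher calls numbered 635 and the lower 1073 at the threshold of 0.01, and leaving out 1 library gave 925 to 1419 higher (925 without co-culture replicate 3). limma-voom on the recovered reads called 7 splicing regulators higher and 8 lower, as reported. With the replicate block, 6 of the splicing regulators were higher and 7 lower, the calls on Srsf10 and Tra2a being lost, and over all genes 1258 were higher and 1640 lower. The reported fit did not pair libraries by number. Deviations of same-numbered libraries correlated at −0.044, 0.11 and −0.083, and not every library correlated best with its own number. With 3 libraries per group these values cannot decide whether the libraries were paired. No called gene changed sign in any setting. The sign changed for 5 uncalled genes near 0, whose log2 change without 1 library ranged over −0.023 to 0.049 for Hnrnpa2b1, −0.0044 to 0.051 for Hnrnpc, −0.027 to 0.064 for Srpk2, −0.041 to 0.020 for Srsf3 and −0.032 to 0.017 for Tra2b, and Srsf3 was at 0.00075 with median-ratio scaling. The cause of these shifts was not tested.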

Other observations

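Relatives of these genes that are known for restricted expression were at or near 0. Srpk3, the muscle member of the SRPK family, had 1 read in co-culture and 1 alone. Srrm3 had 2 reads in co-culture and 0 alone, and Srrm4, which promotes neuronal microexons, had 75 reads in co-culture and 93 alone, against 149125 and 128753 for Srrm2.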
